A study of Mus musculus with 10 samples.

Results

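The 41 genes described here encode the enzymes that make, break down and read the second messengers cAMP and cGMP in the mouse brain. They were chosen by gene symbol from the 25050 genes of a deposited RNA-seq count table, with earlier results of these data known, though the rule itself uses no measured value. Their 41 symbols fill 42 entries of that table, because Pde4d is listed under 2 Ensembl identifiers, and all 42 had enough counts to be tested among 14526 tested genes. The cAMP branch holds 22 genes, the cGMP branch holds 11, and 8 are phosphodiesterases that hydrolyse both nucleotides.

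Adenylyl cyclases make cAMP at the membrane under the control of G proteins, and some of them also respond to calcium and calmodulin. Guanylyl cyclases make cGMP, either in the cytosol in response to nitric oxide or as membrane receptors for natriuretic peptides. Phosphodiesterases (PDEs) end both signals, the protein kinases PKA and PKG carry them on, and transporters of the ABCC family, ABCC5 among them, can carry cyclic nucleotides out of cells.

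The samples were whole brains of FVB/NJ mice, 5 of genotype Abcc5+/+ (wildtype) and 5 of genotype Abcc5-/- (knockout), with no treatment named in the labels. Animals were killed by CO2, brains went straight onto dry ice, and polyadenylated RNA was sequenced from each brain. Age, the way the allele was made and the cells in which it is deleted are not given in the sources used here. The comparison sets the transcripts of the cyclic nucleotide system in the knockout against those in the wildtype brains. Libraries are named by group and replicate number, and levels are CPM, read counts scaled to a common library total after the TMM correction of edgeR.

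Total counts ran from 7731294 to 23588335 per library, and wildtype 1, knockout 2 and knockout 4 were the deeper libraries. For Abcc5 itself the wildtype mean was 311 ± 12.6 CPM and the knockout mean 219 ± 5.95 CPM (SD, n = 5 each), so its transcript was lower (log2 fold change -0.51, adjusted p = 6.35e-06 by edgeR) but not absent. Knockout 3 stood apart: the summed level of 15 cerebellar marker genes was 1013 CPM there and 2865 to 3354 CPM in the other nine libraries. The markers fell unequally. Itpr1, 718 CPM of the sum in knockout 3, was at 51.4% of the mean of the other knockout libraries, and Cbln3 at 0.735%. The granule cell gene Gabra6 was at 1.58 CPM in knockout 3 against 150 CPM or more elsewhere. The summed level of 9 microglial genes was 232 to 250 CPM in wildtype and 267 to 320 CPM in knockout libraries, and 2 of the 9, C1qb and C1qc, were called higher. In RNA from whole tissue, fewer cells of a type and less RNA per cell cannot be told apart.

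No member passed an adjusted p of 0.05 in edgeR's quasi-likelihood test, against 1.18% of all tested genes. At an unadjusted p under 0.05 there were 4 members, against 14.8% of all tested genes: Pde8b and Prkar1b were higher in knockout brains (6.74% of all genes were higher at that level), and Pde4d and Pde7a were lower (8.03%). DESeq2's Wald test and limma-voom called 0 members, and limma-voom with sample weights called 1, Pde4d. The 7 shallower libraries are wildtype 2 to 5 and knockouts 1, 3 and 5, so knockout 3 has more weight among them. In these libraries alone 0 members passed the adjusted threshold and 10 had an unadjusted p under 0.05, against 12.1% of all tested genes. The parts of depth and of knockout 3 in that count were not tested. The groups did not overlap for 1 member, Pde8b, against 4.19% of all tested genes. Pde8b, Prkar1b, Pde4d and Pde7a all belong to the cAMP branch. The adjusted p-values of the authors' deposited table ran from 0.189 to 0.98 over the members.

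The differences were small as well as short of the threshold. The median log2 fold change, knockout over wildtype, was -0.00044 over the 42 entries and 0.0042 over all tested genes. By branch it was 0.02 for cAMP, -0.037 for cGMP and 0.03 for the dual phosphodiesterases, and 21 entries were positive and 21 negative. The median size of the log2 fold change was 0.071 for the members and 0.078 for all tested genes. For 33 of the 42 entries the 95% interval of the difference lay within 1.25-fold in either direction, as it did for 9453 of the 14526 tested genes. It lay within 1.5-fold for 41 entries, the exception being Gucy1a2, and for 13025 of the 14526 tested genes.

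**Figure D1:**
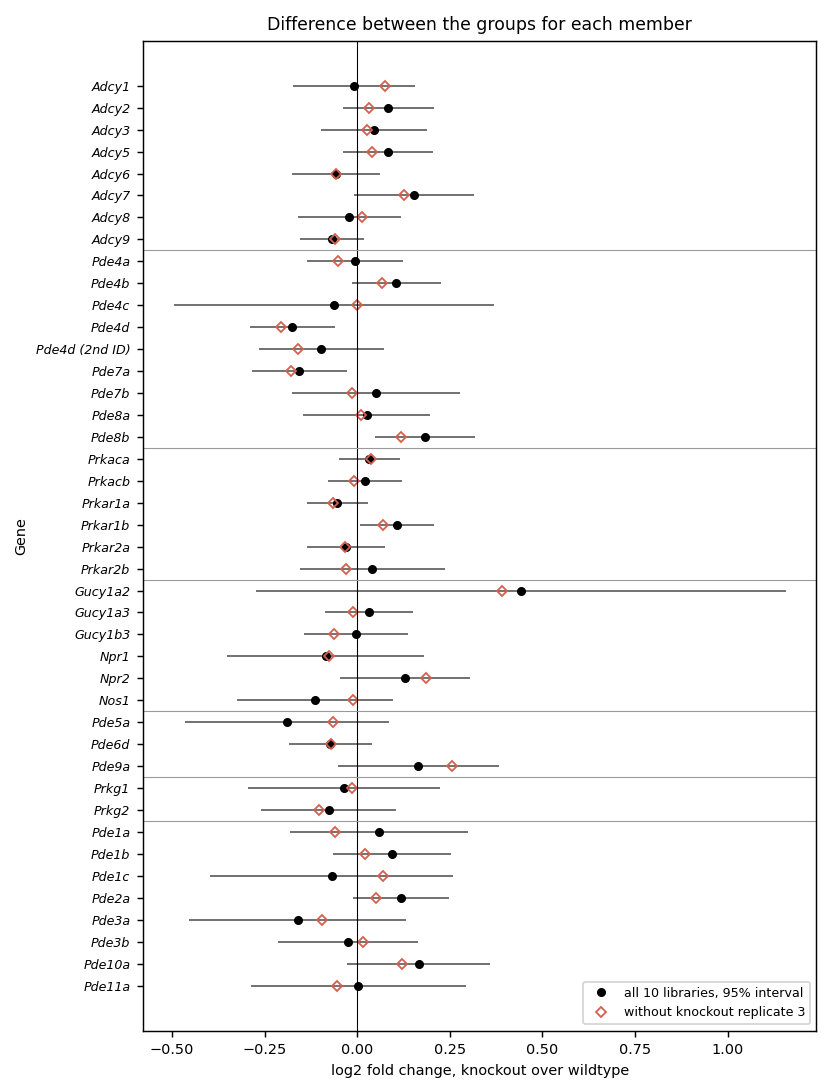
Log2 fold change of each member, knockout over wildtype, from edgeR (black points, all 10 libraries, with 95% intervals) and from the same fit without knockout 3 (open red diamonds), grouped by role. The intervals of Pde4d, Pde7a, Pde8b and Prkar1b lie to 1 side of 0, Gucy1a2 has the widest interval, and the diamonds of Adcy1, Nos1, Pde1a and Pde1c lie away from their points.

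Knockout 3 lay at the edge of the range for many members. It held the highest value of all libraries for 19 of the 42 entries (45.2%, against 19.4% of all tested genes) and the lowest for 10 (23.8%, against 19.2%). The median coefficient of variation over the members was 5.35% in wildtype and 11.1% in knockout libraries. Over the 4 knockout libraries other than knockout 3 it was 6.31%. Over all tested genes the median was 7.46% in wildtype and 8.82% in knockout libraries. In an analysis without that library, 2 members passed the adjusted threshold, against 2.31% of 14747 tested genes. These were Pde4d, lower in knockout brains, and Pde9a, higher in them. At an unadjusted p under 0.05 that analysis had 6 member entries, against 17.9% of genes, and the groups did not overlap for 4 entries, against 6.67%. Whether the loss of cerebellar transcripts accounts for the values of knockout 3 was not tested.

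**Figure D2:**
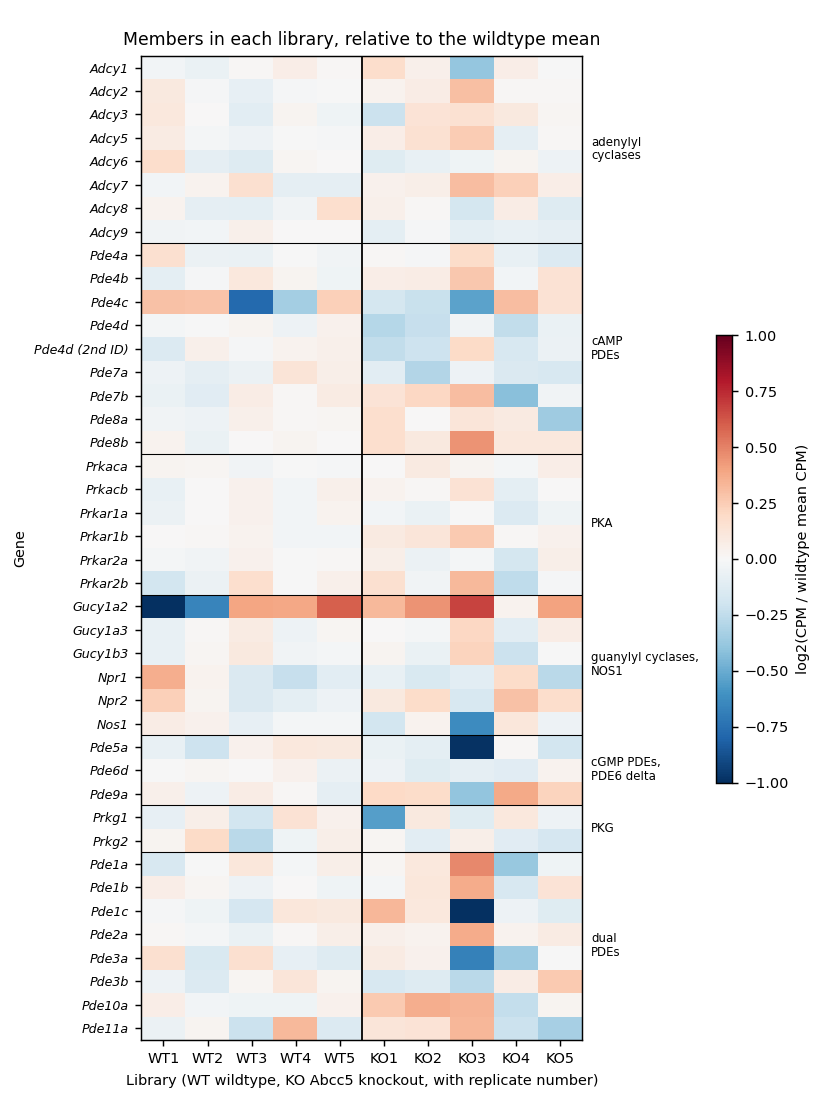
Level of each member entry in each library as log2 of CPM over the wildtype mean (colour, ending at -1 and 1), with the groups divided by a vertical line and the roles by horizontal lines. Knockout 3 is the darkest column for Pde1c, Pde5a and Nos1 (low) and for Pde8b and Pde1a (high), and wildtype 1 and wildtype 2 are low for Gucy1a2.

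The adenylyl cyclases were led by Adcy1, the calcium- and calmodulin-stimulated enzyme of neurons. Scaled by gene length, Adcy1 was at 116 ± 4.14 CPM per kb of merged exons in wildtype brains and made up 52.3 ± 1.34% of the summed length-scaled level of the 8 adenylyl cyclases. Adcy5, the main cyclase of the striatum, followed at 34.3 ± 1.22 CPM per kb and Adcy2 at 31.3 ± 1.41 CPM per kb, a pair closer to each other than to any other cyclase. Adcy9, Adcy6, Adcy3, Adcy8 and Adcy7 came next, down to 2.27 ± 0.168 CPM per kb for Adcy7.

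In CPM, Adcy1 was at 1425, 1388, 1466, 1527 and 1467 in wildtype 1 to 5 and at 1641, 1503, 1110, 1524 and 1449 in knockout 1 to 5. Knockout 3 was below all others and knockout 1 above all others, so the groups overlapped. Adcy1 had a log2 fold change of -0.0086 (SE 0.077, adjusted p = 0.978), or 0.074 without knockout 3. Its share of the adenylyl cyclases fell from 52.3% in wildtype to 42.7% in knockout 3, and that library also had the least cerebellar marker RNA.

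Adcy2, a cyclase of the calcium-insensitive group that G protein beta-gamma subunits can stimulate, was at 141, 131, 125, 131 and 132 CPM in wildtype and at 135, 139, 162, 133 and 133 CPM in knockout libraries. Only knockout 3 lay outside the wildtype range, and the log2 fold change was 0.084 (SE 0.057, adjusted p = 0.52), or 0.03 without that library. Adcy6 was at 90.6, 75.7, 73.7, 81.3 and 80.5 CPM in wildtype and at 73.8, 76.5, 77.8, 81.7 and 77.5 CPM in knockout libraries, where wildtype 1 was the high one and the groups overlapped.

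Adcy7, which is also expressed by microglia and other immune cells, was at 14.9, 15.6, 17, 14.3 and 14.3 CPM in wildtype and at 15.7, 15.9, 18.9, 18 and 16 CPM in knockout libraries. All knockout libraries but 3 and 4 fell inside the wildtype range. Its log2 fold change was 0.15 (SE 0.076, adjusted p = 0.369), and the microglial sum was also higher in every knockout library. Its part in the value of Adcy7 was not tested.

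Adcy9, the forskolin-insensitive cyclase, was at 68.8, 69.4, 73, 70.8 and 70.8 CPM in wildtype and at 66, 70.1, 66, 67 and 66.3 CPM in knockout libraries. All knockout libraries except knockout 2 lay below the lowest wildtype library, with a log2 fold change of -0.069 (SE 0.041, adjusted p = 0.447). Adcy3, Adcy5 and Adcy8 had log2 fold changes of 0.045, 0.082 and -0.022, with overlapping groups, and without knockout 3 those of Adcy3 and Adcy5 were 0.026 and 0.038.

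**Figure D3:**
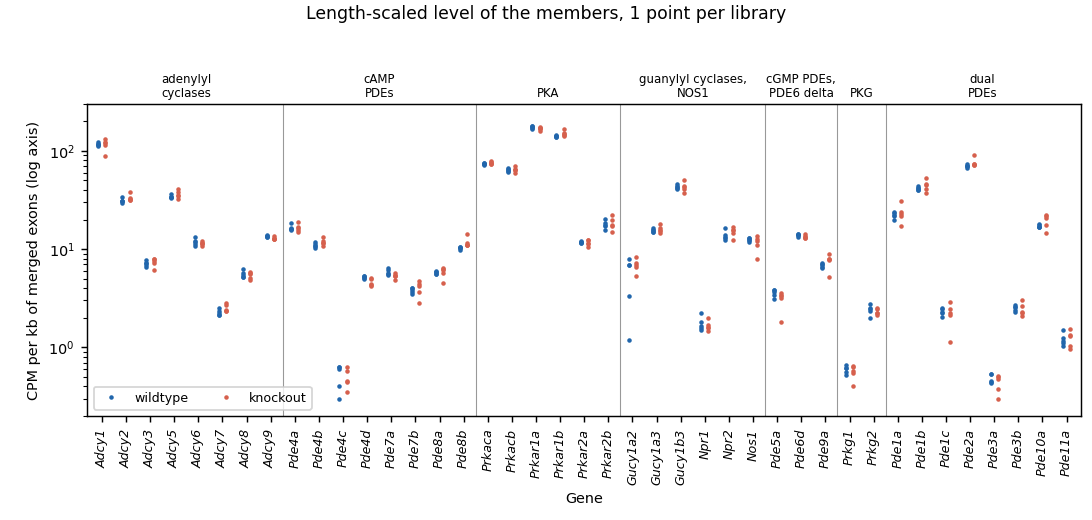
CPM per kb of merged exons (log axis) of the members that have a gene model, 1 point per library, wildtype in blue and knockout in red, grouped by role. Prkar1a (175 CPM per kb in wildtype), Prkar1b and Adcy1 are the highest, and Pde3a, Pde4c and Prkg1 lie below 1.

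Among the phosphodiesterases specific for cAMP, the PDE4, PDE7 and PDE8 families, Pde4a was the highest per length (16.5 ± 1.1 CPM per kb in wildtype), followed by Pde4b (11 ± 0.584) and Pde8b (10.3 ± 0.287). The neighbours Pde4b and Pde8b did not differ beyond their spread. Pde4c was the lowest at 0.514 ± 0.152 CPM per kb. Of the 9 entries in this group, 4 were higher and 5 lower in knockout brains. An unadjusted p under 0.05 was found for 3 of the 9, against 14.8% of all tested genes.

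Pde4d encodes a cAMP phosphodiesterase with many isoforms that anchor to different signalling complexes. Its main entry (ENSMUSG00000021699) was at 61.5, 62, 63.4, 60.2 and 63.9 CPM in wildtype 1 to 5 and at 51.1, 53.2, 60.7, 52.3 and 59.3 CPM in knockout 1 to 5. Only knockout 3 reached the wildtype range, by passing the lowest wildtype library, and knockout 5 was just below it. The group means were 62.2 ± 1.49 and 55.3 ± 4.38 CPM (SD, n = 5 each), or -0.18 on the log2 scale (SE 0.054), at an unadjusted p of 0.00525 and an adjusted p of 0.142. It was the smallest p of any member. Without knockout 3 the log2 fold change of Pde4d was -0.21 with an adjusted p of 0.0418, and the groups did not overlap. In the 7 shallower libraries alone, which include knockout 3, it was -0.13 with an adjusted p of 0.448.

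The second Pde4d identifier, ENSMUSG00000074661, covers chromosome 13 from 110744317 to 110746171, just past the end of the main entry at 110743669 (coordinates of the deposited table, whose build is not given in the sources used here). It was at 23, 26.1, 25.2, 26 and 26.2 CPM in wildtype and at 21.3, 21.9, 28.9, 22.7 and 24.3 CPM in knockout libraries, with a log2 fold change of -0.098 (SE 0.079, adjusted p = 0.605). Knockout 3 was the highest of all libraries for this entry, and the other knockout libraries were at or below most wildtype ones. Without knockout 3 its log2 fold change was -0.16 (adjusted p = 0.211).

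Pde8b, a high-affinity cAMP phosphodiesterase that common PDE inhibitors do not block well, was at 62.1, 57.9, 61, 61.9 and 60.8 CPM in wildtype and at 68.4, 65, 82.8, 65.3 and 65.4 CPM in knockout libraries. Every knockout library was above every wildtype library, and knockout 3 was far above the rest. The means were 60.8 ± 1.69 and 69.4 ± 7.64 CPM, or 0.18 on the log2 scale (SE 0.063), at an unadjusted p of 0.0112 and an adjusted p of 0.189. Without knockout 3 it was 0.12 (adjusted p = 0.18), and the groups still did not overlap. The summed level of 9 striatal markers, a region in which several PDEs are abundant, was 489 to 498 CPM in wildtype libraries, 635 CPM in knockout 3 and 407 CPM in knockout 4.

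Pde7a, a cAMP phosphodiesterase known from T cells and also expressed in brain, went the other way. It was at 44, 42.7, 43.6, 49.9 and 47.5 CPM in wildtype and at 42.3, 37.2, 43.9, 41.2 and 40.8 CPM in knockout libraries, so knockout 3 alone was inside the wildtype range. The log2 fold change was -0.16 (SE 0.06, unadjusted p = 0.0199, adjusted p = 0.24). Without knockout 3 the groups of Pde7a did not overlap and the adjusted p was 0.124.

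Pde4b, one of the enzymes that the PDE4 inhibitor rolipram blocks, was at 108, 115, 124, 118 and 112 CPM in wildtype and at 121, 122, 139, 113 and 128 CPM in knockout libraries. Knockout 3 and knockout 5 were above all wildtype libraries and the other three overlapped them, with a log2 fold change of 0.11 (SE 0.056, adjusted p = 0.406), or 0.066 without knockout 3. Pde8a was at 22.8, 22.5, 24.1, 23.5 and 23.6 CPM in wildtype and at 26.2, 23.3, 25.3, 24.9 and 18.2 CPM in knockout libraries, where knockout 5 was the lowest of all 10 libraries and knockout 1 the highest. Its log2 fold change was 0.025 (SE 0.081), and those of Pde4a, Pde4c and Pde7b were -0.0059, -0.063 and 0.05.

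Summed per length, the 6 PKA genes were the most abundant role among the members. The type I regulatory subunits Prkar1a and Prkar1b, which keep the kinase inactive until cAMP binds, were at 175 ± 5.09 and 140 ± 2.69 CPM per kb in wildtype brains. The catalytic subunits Prkaca and Prkacb were at 74 ± 1.12 and 63.9 ± 2.3 CPM per kb, and the type II regulatory subunits Prkar2b and Prkar2a at 17.8 ± 1.61 and 11.8 ± 0.241. The length-scaled ratio of regulatory to catalytic subunits was 2.5 ± 0.0445 in wildtype and 2.48 ± 0.0652 in knockout libraries, with overlapping ranges of 2.47 to 2.58 and 2.43 to 2.58. The ratio of type I to type II regulatory subunits was 10.7 ± 0.503 in wildtype and 10.7 ± 0.77 in knockout libraries.

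Prkar1a was at 724, 758, 777, 741 and 772 CPM in wildtype and at 742, 721, 752, 687 and 731 CPM in knockout libraries. Knockout 2 and knockout 4 were below all wildtype libraries, both from the deeper set, and the log2 fold change was -0.054 (SE 0.039, adjusted p = 0.544). Prkar1b, the neuron-enriched type I subunit, was at 536, 537, 549, 525 and 523 CPM in wildtype and at 569, 581, 640, 538 and 551 CPM in knockout libraries. Of the knockout libraries, knockout 4 alone lay below the highest wildtype library, and knockout 3 was far above the rest.

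For Prkar1b the difference was 0.11 on the log2 scale (SE 0.046), at an unadjusted p of 0.0351 and an adjusted p of 0.297. Without knockout 3 it was 0.068, with an unadjusted p of 0.0844. Prkacb was at 532, 563, 577, 550 and 581 CPM in wildtype and at 574, 567, 619, 523 and 561 CPM in knockout libraries, where knockout 3 was the highest and knockout 4 the lowest of all 10 libraries. Its log2 fold change was 0.02 (SE 0.046), and Prkaca, the other main catalytic subunit, had one of 0.033 (SE 0.038). All 6 PKA genes had 95% intervals within 1.25-fold.

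The cAMP response element, the 8 letters TGACGTCA that read the same on both strands, is bound by CREB proteins that PKA phosphorylates. RefSeq promoters on GRCm38.p6, from 250 bases before to 50 bases after each start, were at hand for 34 of the 41 members (73 promoters). The full element was found in 2 promoters, both of Prkar1a and overlapping each other (2.74% of the member promoters, against 1.79% of all 32851 promoters). Its 5-letter part, TGACG or CGTCA on either strand, which the full element contains, was in 18 promoters of 16 members (24.7%, against 20.8%). The single full match is shown with its flanks because Prkar1a is also the member with the highest length-scaled level; the capitals mark the element, which begins 49 bases before the start of one Prkar1a transcript, and the stretch is chr11:109650889-109650918 on the plus strand.
Prkar1a: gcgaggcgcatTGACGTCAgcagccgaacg

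On the cGMP side, the soluble guanylyl cyclase is a dimer of the beta 1 subunit, here under its older symbol Gucy1b3, with an alpha 1 (Gucy1a3) or alpha 2 (Gucy1a2) subunit. Per length, Gucy1b3 was at 43 ± 1.93 and Gucy1a3 at 15.6 ± 0.677 CPM per kb in wildtype brains. The log2 fold changes of Gucy1b3 and Gucy1a3 were -0.0034 (SE 0.066) and 0.031 (SE 0.056), and both had overlapping groups.

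Gucy1a2 (ENSMUSG00000041624) was the most variable member in wildtype brains. It was at 7.95, 21.9, 45.5, 45.4 and 52.5 CPM in wildtype 1 to 5 and at 43.3, 47.5, 55.5, 35.5 and 45.9 CPM in knockout 1 to 5. Wildtype 1 and wildtype 2 were both below every other library, and the other three wildtype libraries lay within the knockout range. The coefficient of variation was 54.5% in wildtype and 15.9% in knockout libraries.

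For Gucy1a2 the log2 fold change was 0.44 (SE 0.34, adjusted p = 0.573), and in an analysis without wildtype 1 and wildtype 2, chosen after these values were seen, it was -0.087 (adjusted p = 0.755). With limma-voom it was 0.82 (adjusted p = 0.344), and in the authors' deposited table it was 0.814, with an adjusted p of 0.453. The length-scaled ratio of alpha 1 to alpha 2 was 12.4 in wildtype 1 and 4.75 in wildtype 2, against 2 to 2.7 in the other eight libraries. Gucy1a2 is the denominator of that ratio, so the ratio repeats its low values and is no separate observation. The ratio of beta 1 to both alpha subunits also has Gucy1a2 in its denominator. It was 2.56 in wildtype 1 and 2.3 in wildtype 2, and 1.79 to 1.99 elsewhere.

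Few genes shared the low value of wildtype 1. Of 13444 genes with a median above 2 CPM, 4 were in wildtype 1 below 0.5 times the lowest of the other nine libraries: Lnpep, Gucy1a2, 4632427E13Rik and Kcnb2, named because the count is small. The same count was 132 in knockout 3, 5 in knockout 1, 3 in knockout 5, 1 in knockout 2 and 0 in each remaining library. A count of 4 is therefore not particular to wildtype 1. Lnpep, a membrane aminopeptidase, was at 33.2 and 70.5 CPM in wildtype 1 and wildtype 2 and at 86.7 to 112 CPM elsewhere. The longest Gucy1a2 transcript has a GC content of 37.9%, and 2.04% of tested genes have a lower one. Over the 289 other tested genes with a GC content at or below it, the median level in wildtype 1 was 89.9% of the mean of the other nine libraries. Over all tested genes that median was 100%. The 10% quantile was 76.4% for the 289 genes and 86.6% for all tested genes. The lowest of the 289 was at 53.2%, against 18.2% for Gucy1a2. Lnpep and 4632427E13Rik had a GC content of 40.3% and 38.9%, also below the median of tested genes, 49.8%. No gene model was at hand for Kcnb2. Of the 8 tested neighbours of Gucy1a2 within 2 Mb, the lowest in wildtype 1 was Kbtbd3 at 68% of the mean of the other nine libraries, followed by Aasdhppt at 77.5% and Cwf19l2 at 82%. For these 3 neighbours wildtype 1 was also the lowest of all libraries, though less far below the others than for Gucy1a2. What sets wildtype 1 and wildtype 2 apart for Gucy1a2 was not tested.

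**Figure D4:**
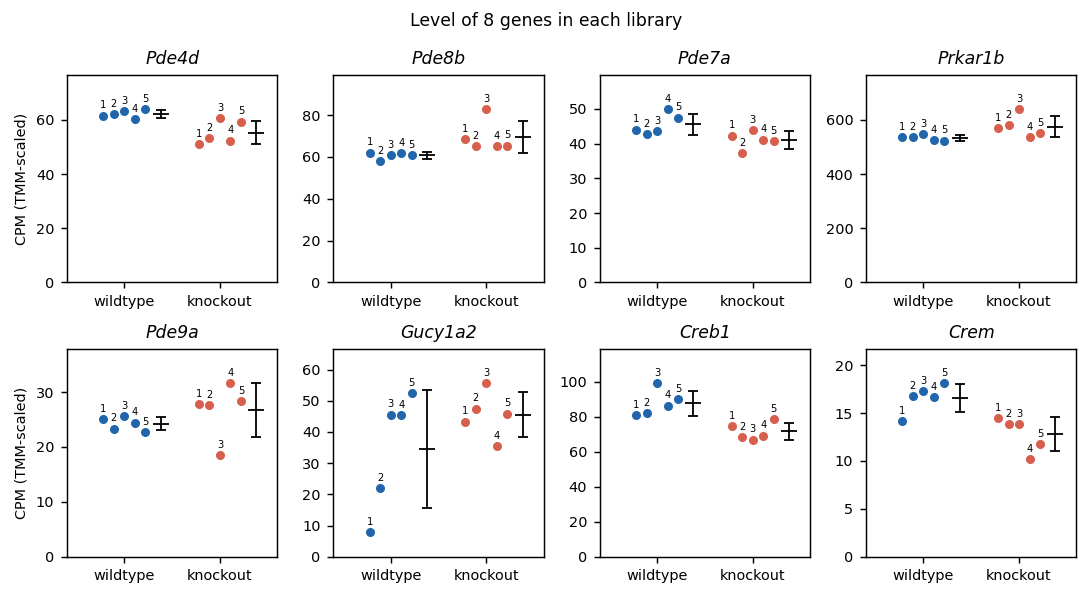
CPM of 8 genes in each library (points numbered by replicate, wildtype blue, knockout red), with the group mean and SD as horizontal lines and bars and axes that start at 0. Pde8b and Creb1 do not overlap between groups, knockout 3 is out of place in Pde9a, and wildtype 1 (7.95 CPM) and wildtype 2 (21.9 CPM) are low in Gucy1a2.

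Npr2, the membrane guanylyl cyclase that binds C-type natriuretic peptide, was at 75.8, 65.4, 58.2, 60.1 and 62.1 CPM in wildtype and at 68.7, 73.1, 57.6, 79 and 72.6 CPM in knockout libraries. Knockout 3 was the lowest of all 10 libraries, the deeper libraries wildtype 1, knockout 2 and knockout 4 were the 3 highest, and the groups overlapped. The log2 fold change was 0.13 (SE 0.082, adjusted p = 0.493), and 0.19 without knockout 3 (SE 0.067, unadjusted p = 0.0125, adjusted p = 0.155). Npr1, the receptor of atrial natriuretic peptide, was at a low 1.75 ± 0.299 CPM per kb in wildtype brains and had a log2 fold change of -0.086 (SE 0.13).

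Nos1, the neuronal nitric oxide synthase that feeds the soluble cyclase, was at 146, 143, 131, 137 and 137 CPM in wildtype and at 122, 142, 89.4, 150 and 134 CPM in knockout libraries. Knockout 3 was at 65.3% of the mean of the other knockout libraries, and the rest of the groups overlapped. Nos1 had a log2 fold change of -0.11 (SE 0.099), and -0.012 without knockout 3.

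Of the cGMP phosphodiesterases, Pde9a encodes the enzyme with the highest affinity for cGMP. It was at 25.1, 23.3, 25.6, 24.4 and 22.7 CPM in wildtype and at 27.8, 27.6, 18.5, 31.6 and 28.3 CPM in knockout libraries. All knockout libraries except knockout 3 were above every wildtype library, while knockout 3 was below them all. The log2 fold change was 0.16 (SE 0.1, adjusted p = 0.478).

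Without knockout 3 the log2 fold change of Pde9a was 0.26 (SE 0.064), with an adjusted p of 0.0419. The 4 remaining knockout libraries had a mean of 28.9 ± 1.84 CPM, against 24.2 ± 1.18 CPM in wildtype. In the 7 shallower libraries, which include knockout 3, it was 0.057 (adjusted p = 0.883).

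Pde5a, the cGMP-specific enzyme that sildenafil inhibits and a transcript of Purkinje cells, was at 33.4, 30.5, 36.2, 37.9 and 37.7 CPM in wildtype and at 33.5, 32.9, 17.7, 35.5 and 30.9 CPM in knockout libraries. Knockout 3 was at 53.3% of the other knockout libraries, and all others overlapped. The log2 fold change was -0.19 (SE 0.13, adjusted p = 0.52), and -0.067 without knockout 3. Pde6d, the prenyl-binding delta protein first found with the PDE6 enzyme of photoreceptors, had a log2 fold change of -0.073 (SE 0.052).

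The kinases of this branch were scarce. Prkg2 was at 2.41 ± 0.273 and Prkg1 at 0.594 ± 0.0531 CPM per kb in wildtype brains, and their sum was 3 ± 0.307 CPM per kb, against 482 ± 8.93 CPM per kb for the 6 PKA genes. Their log2 fold changes were -0.078 (SE 0.085) and -0.037 (SE 0.12). Both had 95% intervals within 1.25-fold, and the lowest count of Prkg1 in a library was 38.

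Of the phosphodiesterases that take both nucleotides, Pde2a, which cGMP stimulates to break down cAMP, was the highest at 70.4 ± 2.19 CPM per kb in wildtype brains. The calcium- and calmodulin-activated Pde1b and Pde1a followed at 41.4 ± 1.38 and 22.1 ± 1.58, and Pde10a, the enzyme of striatal medium spiny neurons, at 17.2 ± 0.623. Pde3a, which cGMP inhibits, was the lowest at 0.48 ± 0.0529 CPM per kb. The summed level of the 8 genes was 158 ± 2.43 CPM per kb in wildtype and 170 ± 20.1 in knockout libraries, from 147 in knockout 4 to 202 in knockout 3.

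Pde2a was at 294, 288, 278, 294 and 303 CPM in wildtype and at 302, 298, 377, 299 and 308 CPM in knockout libraries. Knockout 3 was far above the others, which were within or just above the wildtype range. For Pde2a the log2 fold change was 0.12 (SE 0.06, adjusted p = 0.383), and 0.051 without knockout 3.

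Pde10a was at 231, 217, 214, 214 and 228 CPM in wildtype and at 265, 284, 279, 187 and 225 CPM in knockout libraries. Knockouts 1, 2 and 3 were above all wildtype libraries and knockout 4 below them all. Its log2 fold change was 0.17 (SE 0.091, adjusted p = 0.418). The striatal marker sum was likewise lowest in knockout 4 and above all wildtype libraries in knockouts 1, 2 and 3, and its part in the values of Pde10a was not tested.

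Pde1c, a PDE1 form with high affinity for both nucleotides, was at 45.7, 44.8, 41, 49.9 and 49.2 CPM in wildtype and at 58, 49.7, 22.7, 44.5 and 42.5 CPM in knockout libraries. Knockout 3 was at 46.6% of the mean of the other knockout libraries, the lowest such share of any member. For Pde1c the log2 fold change was -0.069 (SE 0.15), and 0.069 without knockout 3. Pde1a showed the opposite in that library, at 145.5% of the other knockout libraries. Pde1b, Pde3b and Pde11a had log2 fold changes of 0.095, -0.026 and 0.0025, and that of Pde1b was 0.02 without knockout 3.

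**Figure D5:**
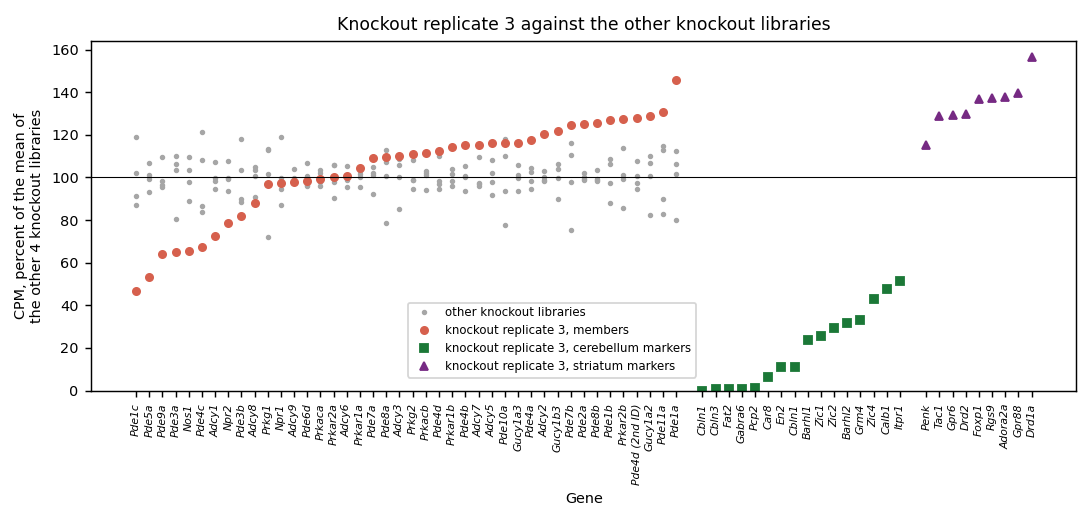
Level in knockout 3 as a percent of the mean of the other 4 knockout libraries, for each member (red), for cerebellar markers (green squares) and for striatal markers (purple triangles), with those 4 libraries in grey. Members run from 46.6% (Pde1c) to 145.5% (Pde1a), cerebellar markers lie at 51.4% or less, and striatal markers at 115% or more.

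Other genes of the pathway were taken from 7 lists of 80 genes, of which 79 were in the table and 57 were tested. Of these 57, 0 were called higher and 2 lower, Abcc5 and Creb1, against 0.213% and 0.964% of all tested genes. Abcc5 is the gene targeted in the knockout, so its call follows from the design and Creb1 is the only other one. The median log2 fold change of the 57 was 0.012. An unadjusted p under 0.05 was found for 9 of the 57, against 14.8% of all tested genes. The groups did not overlap for 4 of the 57, against 4.19% of all tested genes. Abcc4, the other listed exporter of cyclic nucleotides, had a log2 fold change of -0.089 (SE 0.097, adjusted p = 0.72).

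Creb1 encodes the transcription factor that PKA phosphorylates to switch on genes with a cAMP response element. It was at 81.2, 82.4, 99.1, 86.5 and 90 CPM in wildtype and at 74.6, 68.6, 67, 69.3 and 78.9 CPM in knockout libraries. Every knockout library was below every wildtype library, though knockout 5 and wildtype 1 were close. Creb1 fell from 87.8 ± 7.2 to 71.7 ± 4.92 CPM, or -0.29 on the log2 scale (SE 0.061, adjusted p = 0.0303).

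The call of Creb1 was lost when any of wildtype 3, 4 or 5 or knockout 1, 2 or 4 was left out, with adjusted p-values up to 0.0959, and in the 7 shallower libraries alone (adjusted p = 0.19). Over the 10 analyses that leave out 1 library each, its log2 fold change lay between -0.33 and -0.25. Crem, a related factor, was at 14.2, 16.7, 17.3, 16.7 and 18.1 CPM in wildtype and at 14.5, 13.9, 13.9, 10.2 and 11.7 CPM in knockout libraries, where wildtype 1 fell inside the knockout range and the other wildtype libraries were above it. Its log2 fold change was -0.37 (SE 0.1, adjusted p = 0.101), and limma-voom with sample weights called it (-0.41, adjusted p = 0.028). Among the other 9 substrates, Ppp1r1b (the striatal protein DARPP-32), Arpp21 and Arpp19 had log2 fold changes of 0.11, 0.036 and -3.9e-05.

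The remaining lists held no called gene. Of 7 G protein alpha subunits, Gnai3, an inhibitory subunit, had a log2 fold change of -0.14 (SE 0.052, adjusted p = 0.213) and groups that did not overlap, and Gnai2, Gnai1, Gnao1 and Gnal had 0.11, -0.081, 0.039 and 0.0041. Of 7 tested cyclases, receptors and kinases outside the members, Gucy2e, a membrane guanylyl cyclase, had 0.41 (SE 0.15, adjusted p = 0.212). Without knockout 3 Gucy2e was at 0.49, with an adjusted p of 0.047. In the same list Adcy4 had -0.28 with groups that did not overlap (adjusted p = 0.295), Prkx -0.14 and Npr3 0.076.

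Of 14 tested A-kinase anchors and PKA inhibitors, which place PKA in the cell or block it, none had an unadjusted p under 0.05, against 14.8% of all tested genes. Akap10, Pde4dip, Akap1, Akap11 and Akap6 had log2 fold changes of -0.16, -0.068, 0.096, -0.029 and 0.017. Of 8 tested other effectors, the exchange factors Rapgef4 and Rapgef3 had 0.072 and 0.059, the channel Hcn2 had 0.041 and Popdc3 had 0.4 (adjusted p = 0.386). Of 8 tested upstream peptides, receptors and calmodulins, Nos1ap, an adaptor of neuronal nitric oxide synthase, had 0.16 (adjusted p = 0.227) and Adcyap1, the cyclase-activating peptide PACAP, had 0.24 (adjusted p = 0.273). Dlg4 had 0.1, and the calmodulin gene Calm3 had 0.077.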

How the data were processed

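Whole-brain RNA of 5 wildtype and 5 Abcc5 knockout FVB/NJ mice was sequenced from polyadenylated RNA with a kit that does not mark strand, per the labels' protocols, so reads of overlapping antisense genes cannot be told apart. The authors deposited 1 table of counts per Ensembl gene and library. TopHat2 2.0.6, HTSeq, edgeR and limma are named in the submitters' processing notes, with neither their settings nor a build, which is not given in the sources used here. The authors' deposited log2 fold change and adjusted p-value per gene were read only where the cell was intact, and a further 10 columns of per-library values, whose decimal points were damaged, were not used.

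The counts went into edgeR 4.0.16 (R 4.3.3), where filterByExpr (minimum count 10, minimum total 15) kept 14526 of 25050 genes, TMM factors were 0.982 to 1.01, and genotype was the only term of a quasi-likelihood fit, with p-values adjusted by Benjamini-Hochberg across every tested gene and a threshold of 0.05. SEs were derived from the F statistic and the 95% intervals from it. The spread between libraries of a group (common coefficient of variation 0.071; chi-square per degree of freedom 1.27 to 11.3 between replicates) exceeded counting error. Lengths and GC are from the GENCODE M21 annotation, which may differ from the one the authors counted on, and 1 member entry has no model there. Promoters are RefSeq, GRCm38.p6, matched by symbol, with Gucy1a3 and Gucy1b3 under their current symbols Gucy1a1 and Gucy1b1.

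The members and the lists were chosen with earlier results of these data known. Any member could be named. Values in every library were given for the 12 members with the smallest p, the 5 most abundant, those with non-overlapping groups and those with 1 library far outside the others, and for Gucy1a2, chosen after its values were seen. Of each pathway list, called genes, the 3 smallest p and the 2 most abundant were named, except 1 gene that is not reported here. Marker lists of other cell types and regions were cerebellum, striatum, neuron, astrocyte, oligodendrocyte, microglia, endothelium, pericyte and choroid plexus; of these 9 lists, 8 held 0 called genes and microglia held 2.

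Alternatives tried were 2 other scalings (upper quartile, or the size factors of DESeq2), 2 other filters (none, or 1 CPM in at least 5 of the libraries), a block by replicate number, limma-voom (limma 3.58.1) with sample weights or none, DESeq2 1.42.0 by its Wald test, the 7 libraries under 15000000 counts, depth class as a term, an adjusted p of 0.1, leaving out each library, and, added after seeing the data, leaving out wildtype 1 and 2 together. The fit was tested on simulated counts.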

Additional observations from a re-analysis of the deposited data

Results flagged for a closer look

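In 9 of the 144 groups of 5 libraries that were checked, 1 library lay apart from the other 4 by more than Dixon's critical value of 0.71 of the group's range. Chance alone gives about 1 in 20 such groups. Of the 9, 5 were knockout 3, the library low in cerebellar transcripts: Pde2a at 377 CPM (the others 298 to 308), Pde8b at 82.8 CPM (65 to 68.4), Adcy2 at 162 CPM (133 to 139), Pde5a at 17.7 CPM (30.9 to 35.5) and Rapgef4 at 477 CPM (381 to 408). Wildtype 1, a deeper library, had Pde4a at 141 CPM (121 to 126) and Gnai2 at 198.5 CPM (162 to 172.5). Wildtype 2 had Gnai3 at 48.6 CPM (45.3 to 45.9), and knockout 2 had Adcy9 at 70.1 CPM (66 to 67).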

How the results depend on the processing

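The 5 replicate numbers that both groups share were not taken as pairs. The correlations of same-numbered deviations ran from -0.138 to 0.0893, and those of differently numbered ones from -0.19 to 0.278. These correlations cannot exclude a pairing of the animals. With the replicate number as a block, 90 genes were called (8 higher, 82 lower) against 171 (31 higher, 140 lower) without it, 0 members were called, and 1 pathway gene was called, since Creb1 had an adjusted p of 0.0644.

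All genes called came to 563 with limma-voom and sample weights (171 higher, 392 lower), 261 with DESeq2's Wald test (49 higher, 212 lower), 31 in the 7 shallower libraries (5 higher, 26 lower) and 373 at an adjusted p of 0.1. With depth class as a term 48 were called higher. Fewer libraries are tested in the shallower set, which keeps knockout 3, and the cause of the other shifts was not tested. Members called were 1 with sample weights (Pde4d, adjusted p = 0.0288) and 0 in the 9 other alternatives with all or the shallower libraries. Members at an unadjusted p under 0.05 were 7 with upper-quartile scaling, with sample weights and with depth class as a term. The share of all tested genes at that level was not computed for these settings, and in the main fit it was 14.8%. These counts therefore say nothing particular about the members. In the shallower libraries 10 members were at that level, where 12.1% of all genes were. Pathway genes called were 1 in the shallower libraries (Abcc5) and 3 with sample weights (Abcc5, Creb1 and Crem). Upper-quartile scaling moved the median of all genes by 0.017 (log2), the largest shift of any scaling run.

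Leaving out 1 library at a time gave 76 to 341 called genes (8 to 93 higher, 67 to 248 lower), 0 to 2 members called, 2 to 10 members at an unadjusted p under 0.05, and 1 to 3 pathway genes. Of these analyses, only the one without knockout 3 had the share of all tested genes at that unadjusted level computed (17.9%). The range of 2 to 10 therefore has no background beside it. The fold changes that changed sign are of genes that passed no threshold. On the log2 scale, they were 0.028 for Gucy1b3, 0.016 for Akap11, 0.045 for Arpp19 and -0.0021 for Hcn2 with depth class as a term, 0.0025 for Arpp19 with DESeq2's Wald test and 0.00067 with its size factors, and -0.014 for Pde11a and -0.00084 for Gnal with limma-voom. With sample weights they were 0.029 for Adcy1, 0.0083 for Adcy8, -0.00092 for Gucy1a3, -0.050 for Pde11a, -0.023 for Pde1a, 0.022 for Pde4c, -0.0011 for Prkacb, -0.021 for Prkar2b, -0.013 for Akap6, -0.0019 for Arpp21, -0.0064 for Gnal and -0.0057 for Npr3. In the shallower libraries they were 0.069 for Gucy1b3, 0.068 for Pde4a, -0.011 for Pde8a, 0.028 for Prkar2a, 0.087 for Arpp19 and -0.033 for Hcn2. With upper-quartile scaling they were 0.0080 for Adcy1, 0.013 for Gucy1b3, 0.011 for Pde4a and 0.017 for Arpp19, with the replicate block -0.012 for Pde11a, and without both wildtype 1 and wildtype 2, chosen after seeing the data, -0.087 for Gucy1a2.

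Over the analyses without 1 library each, the log2 fold change ran from -0.057 to 0.074 for Adcy1, -0.051 to 0.017 for Adcy8, -0.012 to 0.066 for Gucy1a3, -0.063 to 0.048 for Gucy1b3, -0.19 to 0.059 for Npr1, -0.056 to 0.096 for Pde11a, -0.061 to 0.16 for Pde1a, -0.17 to 0.069 for Pde1c, -0.095 to 0.016 for Pde3b, -0.053 to 0.039 for Pde4a, -0.23 to 0.057 for Pde4c, -0.014 to 0.17 for Pde7b and -0.0066 to 0.089 for Pde8a. It ran from -0.010 to 0.050 for Prkacb, -0.054 to 0.0088 for Prkar2a, -0.031 to 0.12 for Prkar2b, -0.096 to 0.042 for Prkg1, -0.082 to 0.011 for Akap11, -0.013 to 0.041 for Akap6, -0.092 to 0.087 for Arpp19, -0.043 to 0.098 for Arpp21, -0.025 to 0.049 for Gnal, -0.0066 to 0.14 for Npr3 and -0.0085 to 0.13 for Rapgef3. None of these genes was called in any of those analyses. Counts as low as 13 in a library limit what can be seen in Pde4c.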
